A study of Homo sapiens with 12 samples.

Results

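The genes of the proteasome were followed in T47D-MTVL, a breast cancer cell line (T47D) that carries a single copy of a luciferase gene under the MMTV promoter. Members were the protein-coding genes whose symbol starts with PSMA, PSMB, PSMC, PSMD, PSME, PSMF or PSMG followed by digits, which took in 48 of the 57820 genes counted. PSMC3IP, which starts the same way but names a partner protein that acts in recombination, was set apart. This left 47 genes, of which 44 encode the common proteasome and its helpers and 3 (PSMB8, PSMB9 and PSMB10) the immunoproteasome. PSMB3 was not analysed here.

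The 12 libraries formed 6 groups of 2, and none came from cells given the progestin R5020. In 4 groups poly(A) RNA was sequenced: after a control siRNA (siCtrl), after an siRNA to PADI2 (siPADI2), and after expression of an HA-tagged RNA polymerase II (RNAP2) insensitive to alpha-amanitin, as wild type (WT) or with the change R1810A. The RNAP2 groups were given 24 hours for expression and 12 hours of 6 µg/ml alpha-amanitin, which shuts down the endogenous enzyme. In the other 2 groups chromatin-associated RNA was sequenced, with siCtrl or siPADI2. Charcoal-treated serum was used throughout, and every result rests on 1 cell line. PADI2 is an enzyme that converts arginine in proteins to citrulline, and the design sets its loss beside the replacement of R1810, an RNAP2 arginine. Nothing in the labels states that paired libraries of a group are separate cultures. The p-values therefore rest on the spread between these libraries alone, which may be technical.

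The proteasome is the large protease that degrades proteins tagged with ubiquitin. Its barrel, the 20S core, is built from outer rings of alpha subunits, which gate the entry, and inner rings of beta subunits, of which PSMB5, PSMB6 and PSMB7 carry the catalytic sites. The 19S cap binds ubiquitin, removes it, and unfolds and feeds in the substrate with its ring of ATPases. Other activators (PSME1 to PSME4) can replace the cap, and dedicated chaperones assemble the parts. Interferon induces PSMB8, PSMB9 and PSMB10, which take the places of PSMB5, PSMB6 and PSMB7 and favour the cutting of peptides for antigen presentation. Because the subunits work in fixed ratios, most of their genes are known to be regulated together, in part through the transcription factors NFE2L1 and NFE2L2.

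Depth, as total counts in units of 1e6, was 44.32 to 132.8 for poly(A) RNA and only 2.72 to 7.04 for chromatin RNA, where low values are least precise. The 48 genes took 0.5575% to 0.6146% of poly(A) counts and 0.186% to 0.2103% of chromatin counts. PADI2 fell from 24.0 and 22.6 counts per 1e6 of the scaled library size (CPM) with siCtrl to 1.83 and 1.88 CPM with siPADI2 in poly(A) RNA. The libraries labelled R1810A also held little of it, at 3.13 and 2.35 CPM against 48.9 and 50.7 CPM with WT, so the comparisons do not separate loss of PADI2 RNA from the RNAP2 change. In chromatin RNA it fell from 34.9 and 32.5 to 8.52 and 14.2 CPM. Of 9 luminal breast markers, 7 fell in each poly(A) comparison (27.9% of all genes fell after siPADI2 and 24.3% in the libraries labelled R1810A), and their summed level went from 11371 and 10500 to 6160 and 5737 CPM after siPADI2 and from 10039 and 10571 to 5926 and 6698 CPM in the libraries labelled R1810A. Whether the proteasome results moved with this was not tested, and in bulk RNA fewer cells of a type and less RNA per cell cannot be told apart. In the siCtrl and siPADI2 poly(A) libraries KRT5, the basal keratin, had no count, and the immune markers PTPRC, CD3E and CD68 were at most 0.0804 CPM. The 4 fibroblast markers summed to 74.6 and 61.4 CPM with siCtrl and to 70.0 and 70.5 CPM with siPADI2.

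Levels of different genes were compared as CPM per kb of exon, in the siCtrl poly(A) libraries. PSMD2, a scaffold of the 19S base, stood highest with 136 and 142.5 CPM per kb, followed by the beta subunit PSMB4 with 129 and 135 CPM per kb. The catalytic genes held 34.1 and 34.9 (PSMB5), 61.8 and 63.3 (PSMB6) and 83.8 and 87.6 CPM per kb (PSMB7). Within the alpha ring, whose subunits enter the core in equal number, levels ran from 3.59 and 4.39 CPM per kb for PSMA2 to 72.0 and 69.3 CPM per kb for PSMA7. The length used counts every annotated exon, and reads in exons shared with a neighbour on the same strand were not counted. Such bases make up 32.9% of the exons of PSMA1, 14.6% of PSMA2 and 14.2% of PSMA6, so the levels of these genes are uncertain. Among the chaperones the level ran from 0.820 and 0.647 CPM per kb for PSMG4 to 55.4 and 60.5 CPM per kb for PSMD5. PSMA8, the alpha subunit of testis, and PSMB11, the beta subunit of the thymus cortex, had no count in either siCtrl poly(A) library. The plot of levels by role sets all of these side by side.

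**Figure D1:**
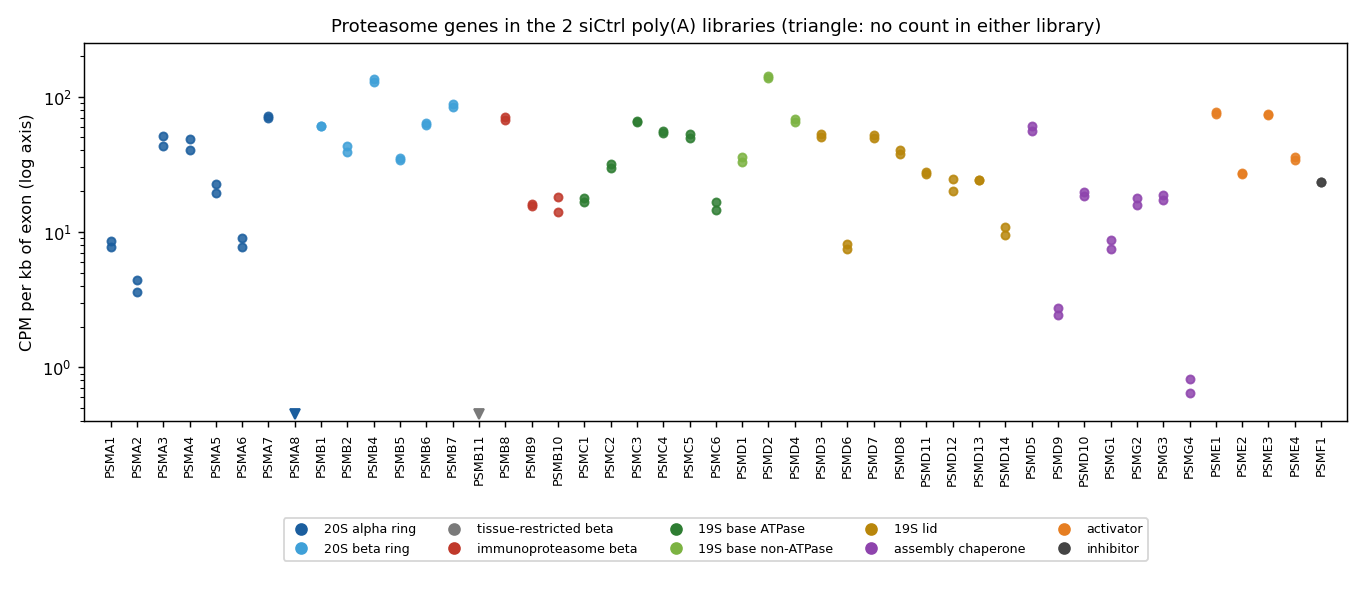
Level of each proteasome gene as CPM per kb of exon (log axis) in the 2 siCtrl poly(A) libraries, 1 point per library, coloured by role. PSMD2 and PSMB4 stand highest, PSMG4 is lowest among the genes detected, and PSMA8 and PSMB11 had no count.

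After siPADI2, poly(A) RNA of 9 of the 13 tested 20S core genes, of several cap subunits and of the activators PSME3 and PSME4 was lower than after siCtrl, while the 19S ATPases did not pass the test. Of the 44 common genes 42 could be tested, and 18 of these (42.9%) fell and 2 (4.8%) rose. Over all 18720 genes tested, 27.9% fell and 28.8% rose. The median log2 fold change was −0.14 for the 42 genes and 0.01 for all genes. When total counts replaced TMM scaling, the median of all genes moved to 0.19 and that of the members to 0.04. Of the members 11 were then lower and 10 higher, beside 3636 lower and 7398 higher of all genes. The distance of the members below all genes was −0.15 under both scalings. Summed over the 44 genes the level was 5909 and 6209 CPM with siCtrl and 5060 and 4957 CPM with siPADI2.

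In the alpha ring 6 of 7 tested genes fell, with a median log2 fold change of −0.33. PSMA4 stood at 156 and 186 CPM with siCtrl and at 114.1 and 115.5 CPM with siPADI2. Both siPADI2 libraries lay below both siCtrl libraries, and the log2 fold change was −0.58 (SE 0.086, adjusted p = 4.1e-07). PSMA5 went from 112 and 129 to 79.7 and 87.8 CPM, a log2 fold change of −0.52 (SE 0.086). PSMA2 fell by 0.45, PSMA3 by 0.33, PSMA1 by 0.31 and PSMA6 by 0.25 on the log2 scale, and the libraries of PSMA6 overlapped. PSMA7 was the exception, with 126 and 121 CPM against 133 and 114 CPM (adjusted p = 0.98).

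In the beta ring 3 of 6 tested genes fell. PSMB4, a non-catalytic subunit whose tail clasps the facing ring, held 277 and 292 CPM with siCtrl and 185 and 197 CPM with siPADI2. The groups were well apart, with a log2 fold change of −0.58 (SE 0.083, adjusted p = 2.0e-07). PSMB6, the caspase-like catalytic subunit, fell by 0.30 on the log2 scale (SE 0.082, adjusted p = 0.0020), from 87.8 and 89.9 to 73.0 and 71.6 CPM. PSMB2 fell by 0.23. The other catalytic genes did not pass: PSMB5, the chymotrypsin-like subunit, had a log2 fold change of −0.15 (adjusted p = 0.14), and PSMB7, the trypsin-like subunit, one of −0.01 (adjusted p = 0.94).

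In the 19S cap the calls lay outside the ATPase ring. The 6 ATPases PSMC1 to PSMC6, the unfolding ring, had log2 fold changes between −0.09 and 0.10, and edgeR called 0 of 6, with 0 at an unadjusted p under 0.05 and 0 called by DESeq2. Among the other base subunits, the scaffolds PSMD1 and PSMD2 fell by 0.39 each. PSMD2 went from 742 and 777 CPM to 586 and 576 CPM (SE 0.086, adjusted p = 2.1e-04). The ubiquitin receptor PSMD4 instead rose, from 197 and 208 to 243 and 228 CPM, a log2 fold change of 0.22 (SE 0.083, adjusted p = 0.024) that no longer passed without siCtrl replicate 1 (adjusted p = 0.13) or siPADI2 replicate 1 (adjusted p = 0.22). In the lid, which carries the deubiquitinase PSMD14, 3 of 8 genes fell. PSMD3, a structural lid subunit, had the largest change there, from 264 and 250 to 155 and 140 CPM. Both groups were far apart, with a log2 fold change of −0.80 (SE 0.085, adjusted p = 1.6e-10). PSMD7, the partner of PSMD14, and PSMD11 fell by 0.27 each, and PSMD14 itself had a log2 fold change of 0.09 (adjusted p = 0.40).

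Assembly chaperones moved in both directions. PSMD5, which holds an ATPase intermediate of the cap, stood at 246 and 268 CPM with siCtrl and 141 and 144 CPM with siPADI2, a log2 fold change of −0.85 (SE 0.084, adjusted p = 2.6e-11). PSMD10, also called gankyrin, acts beside it and went from 45.3 and 48.7 to 27.5 and 26.4 CPM, a log2 fold change of −0.80 (SE 0.091). Another base chaperone, PSMD9, had a log2 fold change of 0.01 (adjusted p = 0.95). PSMG1, which with PSMG2 templates the alpha ring, rose from 18.8 and 22.0 to 32.3 and 32.1 CPM, with no overlap and a log2 fold change of 0.65 (SE 0.098, adjusted p = 4.4e-07). Its partner PSMG2 stood at 43.4 and 48.3 against 41.6 and 40.5 CPM (adjusted p = 0.12), so the genes of this heterodimer gave different values.

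Among activators, PSME3, the nuclear REG gamma cap that works without ubiquitin, had the largest change of all members tested. It stood at 357 and 366 CPM with siCtrl and 178 and 191 CPM with siPADI2. The log2 fold change was −0.97 (SE 0.084, adjusted p = 8.5e-13), a 1.96-fold lower level. PSME4, the PA200 cap linked to acetylated histones, fell from 347 and 369 to 230.0 and 235 CPM, by 0.62 on the log2 scale (SE 0.084). The interferon-inducible pair PSME1 and PSME2, which form a joint ring, had log2 fold changes of 0.15 (adjusted p = 0.11) and −0.11 (adjusted p = 0.24). PSMF1, an inhibitor of the core, had one of 0.13 (adjusted p = 0.19). The plot of effects by role shows the spread of each group.

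**Figure D2:**
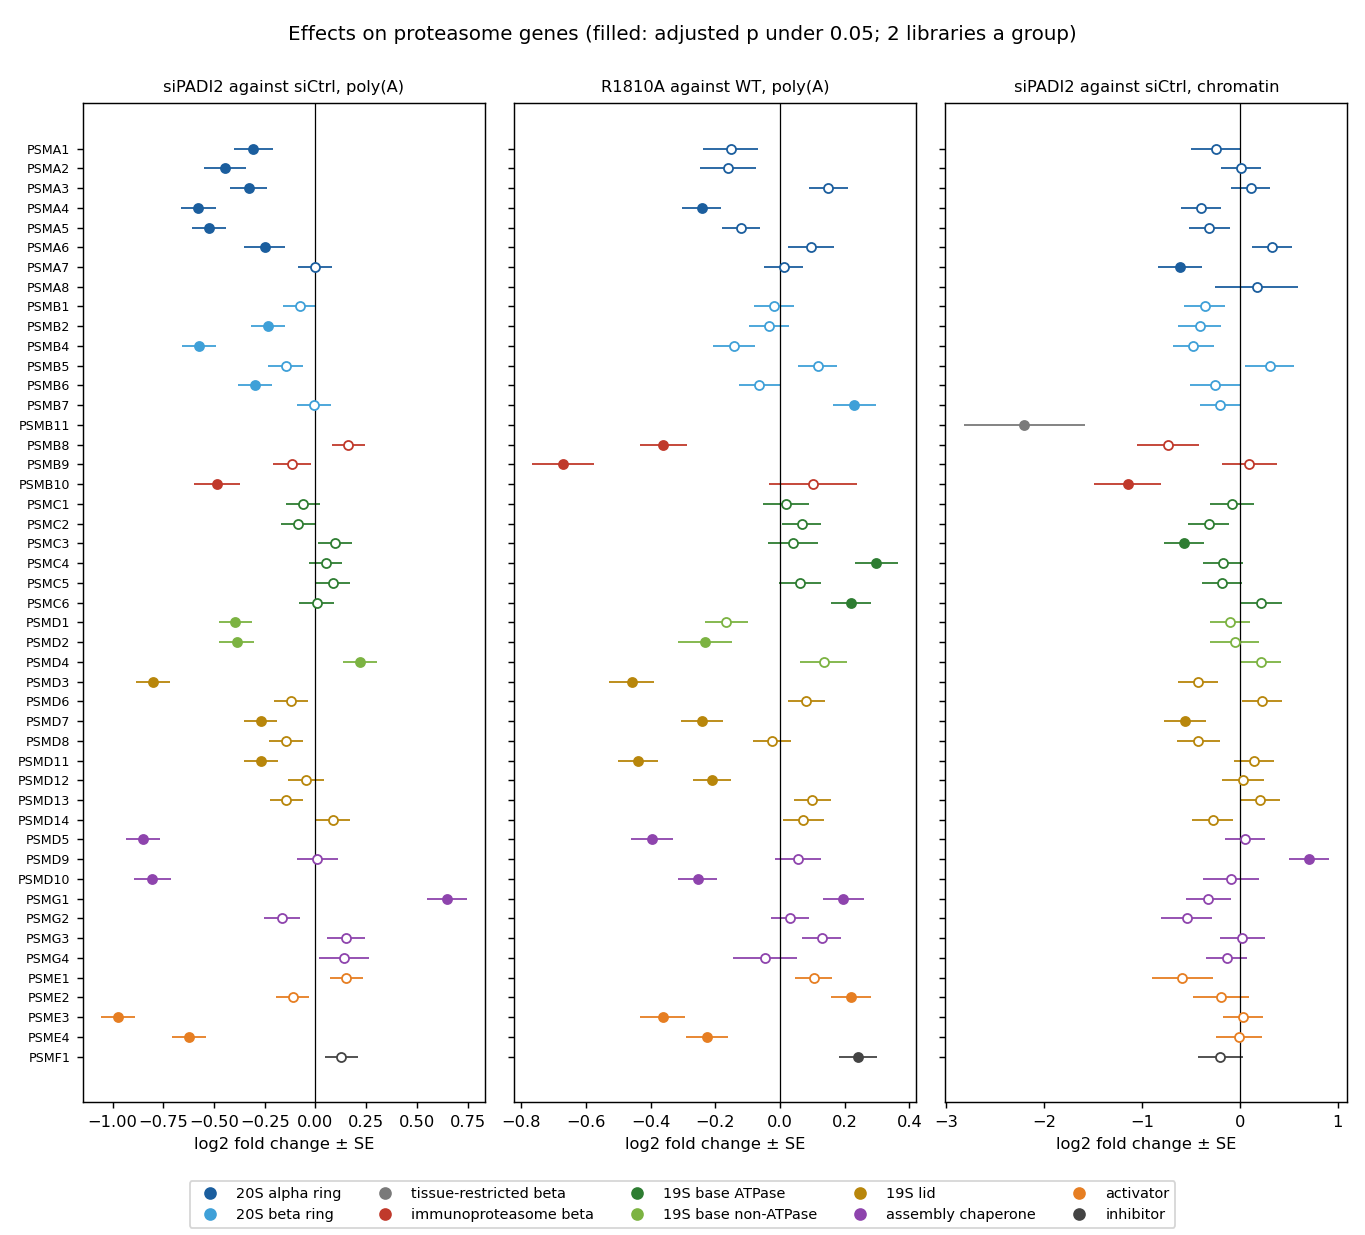
Log2 fold change (horizontal, ± SE) of each tested proteasome gene in the 3 comparisons, coloured by role, with filled points for an adjusted p under 0.05. After siPADI2 in poly(A) RNA, 18 of 42 common genes lie on the lower side as filled points and the 6 ATPases lie near 0 as open points. The horizontal scales differ between panels.

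Of the 19 calls of lower RNA, PSMB10 included, 12 held in all 11 alternatives: PSMA2, PSMA4, PSMA5, PSMB4, PSMB10, PSMD1, PSMD2, PSMD3, PSMD5, PSMD10, PSME3 and PSME4. PSMB6 was lost only with total counts. PSMA1, PSMA3, PSMA6, PSMB2, PSMD7 and PSMD11 lost their call with total counts too, and each lost it without 1 or more of the 4 libraries.

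In the libraries labelled R1810A against WT, 4 of 8 lid genes, the chaperones PSMD5 and PSMD10 and the activators PSME3 and PSME4 were lower, and PSMC4, PSMC6 and PSMB7 were among the genes that were higher. Of 42 genes tested, 10 fell and 6 rose, against 24.3% lower and 22.6% higher among 19202 genes, so the share that fell (23.8%) was close to that of all genes. The median was 0.02 for the members and −0.02 for all genes. With total counts 6 members were lower and 10 higher, beside 3901 lower and 5110 higher of all genes. Lid subunits led the decreases: PSMD3 went from 239.9 and 258 CPM to 172 and 190 CPM, a log2 fold change of −0.46 (SE 0.070, adjusted p = 1.3e-04). PSMD11, whose level is known to rise with proteasome activity in stem cells, went from 242 and 251 to 180 and 184 CPM, a change of −0.44 (SE 0.062, adjusted p = 6.9e-05). In both genes the groups did not overlap. PSMD7 and PSMD12, also of the lid, fell by 0.24 and 0.21.

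PSMD5 fell from 177 and 182 to 130.3 and 142 CPM, by 0.40 on the log2 scale (SE 0.064), and PSMD10 fell by 0.25 (SE 0.061). PSME3 went from 331 and 349 to 255 and 275 CPM, a log2 fold change of −0.36 (SE 0.069, adjusted p = 7.6e-04), and PSME4 fell by 0.23. PSMA4 was the 1 alpha gene to fall, by 0.24, from 188 and 181 to 156 and 155 CPM. PSMD2 fell by 0.23.

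The genes that rose came from several roles. PSMC4 went from 115 and 122 to 138 and 152 CPM, a log2 fold change of 0.30 (SE 0.066, adjusted p = 0.0024), and PSMC6 rose by 0.22. PSMB7 had a log2 fold change of 0.23, PSME2 of 0.22, PSMF1 of 0.24 and PSMG1 of 0.20. Without WT replicate 1 only PSME2 rose and 5 genes fell, and PSMB7, PSMC4, PSMC6, PSMF1 and PSMG1 no longer passed. Without R1810A replicate 1 only 6 fell. None of the 6 calls of higher RNA held in every alternative, while PSMD3, PSMD5, PSMD10, PSMD11 and PSME3 did. PSMC3IP, set apart, fell by 0.28.

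The 2 poly(A) comparisons share no library, so their effects can be set side by side. Over the 42 common genes, the log2 fold changes had a Pearson correlation of 0.77 across genes, which are not independent replicates. Over all 18260 genes tested in both it was 0.65. The sign was the same for 30 genes (71.4%), as for 71.6% of all genes. In both comparisons 10 members (23.8%) passed in the same direction, 9 of them lower and 1 higher (PSMG1), against 31.4% of all genes. For PSMB4 the values were 291 and 294 against 257 and 273 CPM in the WT libraries and those labelled R1810A, a log2 fold change of −0.14 (adjusted p = 0.092) beside −0.58 after siPADI2. The plots of levels by library and of effect against effect show both comparisons.

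**Figure D3:**
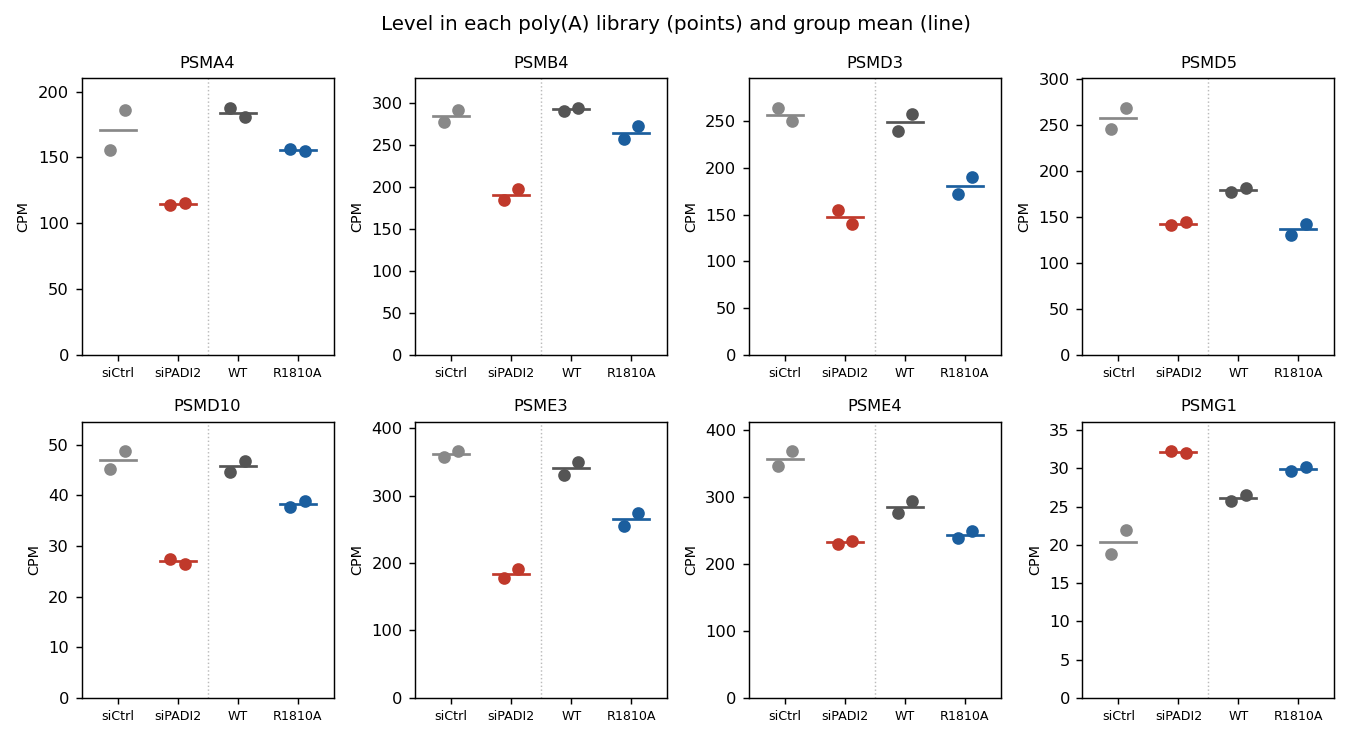
CPM (vertical, from 0) of 8 members in the 8 poly(A) libraries, 1 point per library with a line at the group mean; the dotted line parts the 2 comparisons, which were scaled separately. The siPADI2 libraries lie below the siCtrl libraries for every gene shown other than PSMG1, which is higher.

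**Figure D4:**
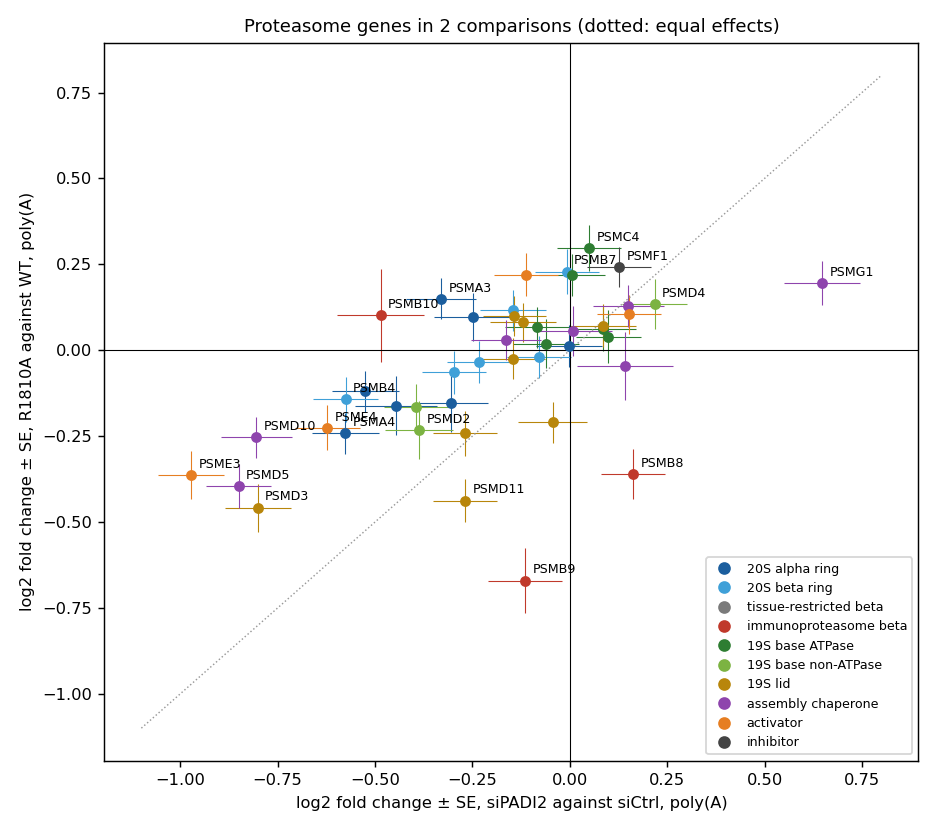
Log2 fold change (± SE) after siPADI2 (horizontal) against that in the libraries labelled R1810A (vertical) for each gene tested in both, coloured by role. PSME3, PSMD5, PSMD3 and PSMD10 lie at the lower left, above the dotted line of equal effects, PSMG1 lies at the right, and PSMB8 and PSMB9 lie below the line.

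A joint fit of the 8 poly(A) libraries tested whether the effects differed. The siPADI2 effect was lower than the R1810A effect for 13 common genes and higher for 1, against 14.3% lower and 11.8% higher among 19884 genes. The median difference was −0.22 on the log2 scale for the members and 0.00 for all genes. With total counts that of the members was −0.08, with 6 lower and 2 higher, beside 1822 lower and 3870 higher of all genes. PSME3 showed the largest difference, of −0.63 (SE 0.096, adjusted p = 2.4e-04), followed by PSMD10 with −0.58 (SE 0.098) and PSMA3 with −0.51 (SE 0.12). PSMA3 had stood at 134 and 160.0 CPM against 110 and 125 CPM after siPADI2, and at 115 and 109 against 123.7 and 123.9 CPM in the other comparison. PSMG1 differed by 0.43, a call lost without WT replicate 2 (adjusted p = 0.056). Of the 13 lower calls, 6 held in all alternatives: PSMA3, PSMB4, PSMD5, PSMD10, PSME3 and PSME4. Without siPADI2 replicate 2, WT replicate 1, R1810A replicate 1 or R1810A replicate 2, 8 genes passed as lower in each case. Among the ATPases edgeR called 0 of 6, with 2 at an unadjusted p under 0.05.

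The immunoproteasome genes gave different calls in the 2 poly(A) comparisons: PSMB10 was lower after siPADI2, and PSMB8 and PSMB9 were lower in the libraries labelled R1810A. PSMB8 and PSMB9 overlap at their ends on opposite strands of chromosome 6 (hg19, chr6:32808494-32812480 and chr6:32811913-32827362), beside genes of antigen transport. After siPADI2, PSMB8 stood at 152 and 158 CPM against 141 and 136 CPM, a log2 fold change of 0.16 that did not pass (adjusted p = 0.088). PSMB9 stood at 39.9 and 49.8 against 47.8 and 49.4 CPM (adjusted p = 0.31), with overlapping groups. PSMB10 fell, from 33.8 and 26.0 to 22.7 and 19.7 CPM, a log2 fold change of −0.49 (SE 0.11, adjusted p = 6.2e-04). Of the exonic bases of PSMB10, 34.8% are shared with another gene on the same strand, so its counts are incomplete.

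In the libraries labelled R1810A the calls fell on the other genes. PSMB8 fell from 32.4 and 33.6 to 24.1 and 27.3 CPM, a log2 fold change of −0.36 (SE 0.072, adjusted p = 0.0011). PSMB9 fell from 8.02 and 7.86 to 4.76 and 5.22 CPM, a change of −0.67 (SE 0.095, adjusted p = 7.0e-05), the largest among the members tested in this comparison. PSMB10 stood at 5.83 and 6.27 against 5.57 and 7.41 CPM (adjusted p = 0.59). The difference between the comparisons passed for PSMB8 (0.50, SE 0.095, adjusted p = 0.0014) and PSMB9 (0.53, SE 0.13, adjusted p = 0.0098), in all 11 alternatives. For PSMB10 it was −0.61 (adjusted p = 0.078).

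Set against the constitutive subunit it replaces, per kb of exon, PSMB8 was at 2.06 and 1.94 times PSMB5 with siCtrl and at 2.33 and 2.63 times with siPADI2. With WT the ratio was 0.473 and 0.488, and in the libraries labelled R1810A 0.335 and 0.355. In each comparison the 2 groups did not overlap. PSMB9 against PSMB6 gave 0.252 and 0.254 with siCtrl and 0.253 and 0.322 with siPADI2, and these groups overlapped. With WT it gave 0.0473 and 0.0447 and in the libraries labelled R1810A 0.0303 and 0.0301. On chromatin PSMB8 was at 0.726 and 0.784 times PSMB5 with siCtrl and at 0.377 and 0.359 times with siPADI2, where the groups did not overlap. The difference between the fractions did not pass for PSMB8 (adjusted p = 0.11). PSMB9 against PSMB6 on chromatin was at 0.334 and 0.3001 with siCtrl and at 0.363 and 0.440 with siPADI2. PSMB10 against PSMB7 was lower after siPADI2 in poly(A) RNA, at 0.138 and 0.130 against 0.218 and 0.160, and with WT it was at 0.0385 and 0.0401 against 0.0324 and 0.0392 in the libraries labelled R1810A, which overlapped. The plot of immunoproteasome genes by library shows the levels behind these ratios.

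**Figure D5:**
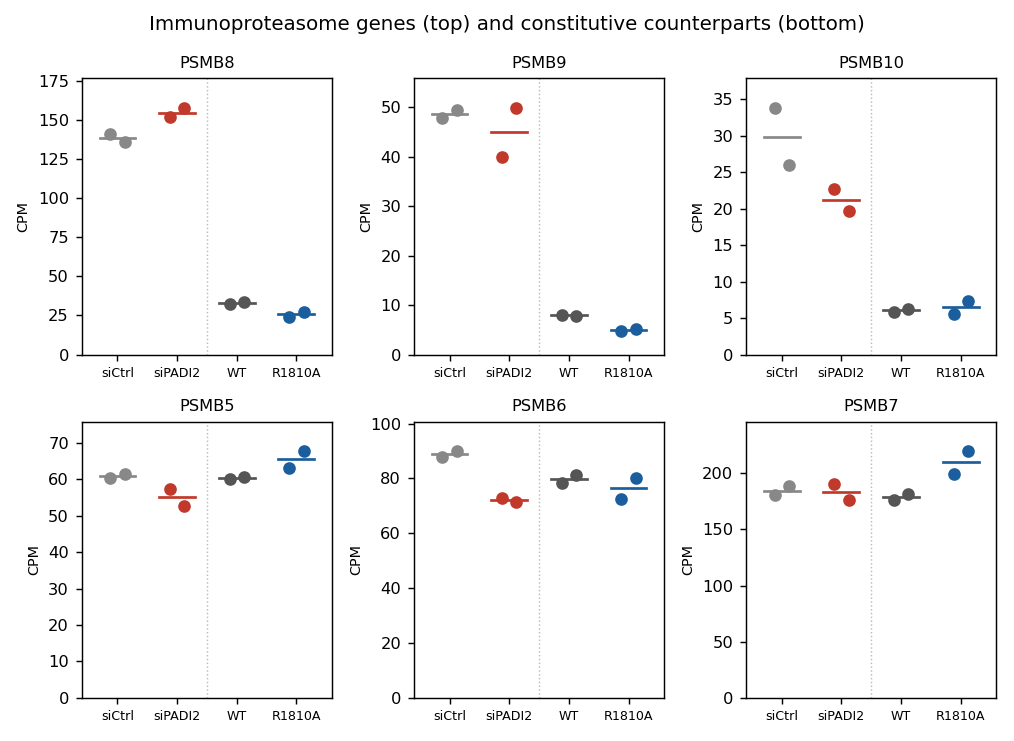
CPM (vertical, from 0) of PSMB8, PSMB9 and PSMB10 (top) and of PSMB5, PSMB6 and PSMB7 (bottom) in the 8 poly(A) libraries, 1 point per library with a line at the group mean; the dotted line parts the 2 comparisons, which were scaled separately. PSMB8 and PSMB9 are lower in the libraries labelled R1810A than with WT, and PSMB10 is lower after siPADI2 than after siCtrl.

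Genes known to act beside the immunoproteasome were counted from a list of 16 genes of peptide loading and interferon signalling. After siPADI2 6 rose and 8 fell, where 28.8% of all genes rose and 27.9% fell. HLA-B and HLA-C, which encode class I heavy chains, rose by 0.37 and 0.41 on the log2 scale, and B2M, the class I light chain, rose by 0.27. The transporter subunit TAP2 fell by 0.72 and its partner TAP1 had a change of 0.03 (adjusted p = 0.78). In the libraries labelled R1810A 3 of the 16 rose and 5 fell, close to the 22.6% and 24.3% of all genes. There TAP2 fell by 0.77, B2M rose by 0.23, and HLA-B and HLA-C did not pass. In chromatin RNA 4 fell (20.1% of all genes did), among them NLRC5, the transactivator of class I genes, by 1.07.

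In chromatin RNA the siPADI2 effect on the members was small against its error. Markers of other cell types were not near 0 there. The summed level of 4 immune markers was 67.6 and 70.7 CPM with siCtrl and 84.1 and 80.1 CPM with siPADI2. That of 4 fibroblast markers was 166 and 179 against 80.9 and 91.4 CPM. For 4 basal markers it was 77.8 and 94.4 against 100.1 and 121 CPM. In siCtrl poly(A) RNA the sums were 0.72 and 0.86 CPM (immune), 74.6 and 61.4 CPM (fibroblast) and 5.80 and 5.57 CPM (basal). Fibroblast markers were thus not near 0 in either fraction. On chromatin luminal markers summed to 2577 and 2407 against 1585 and 1082 CPM, and the part of any of these in the results was not tested. All 44 common genes could be tested, and 4 fell and 1 rose, against 20.1% lower and 12.2% higher among 33879 genes. The median log2 fold change was −0.18 for the members and 0.03 for all genes, and SEs of the members ran from 0.202 to 0.621. PSMA7, which had not passed in poly(A) RNA, had 31.6 and 32.2 CPM with siCtrl and 24.1 and 17.7 CPM with siPADI2 (log2 fold change −0.61, SE 0.22, adjusted p = 0.023). PSMC3 and PSMD7 fell by 0.57 and 0.56. With a correction for GC content the value was −0.11 for PSMA7 (adjusted p = 0.75) and −0.0076 for PSMC3 (adjusted p = 0.98), so these calls depend on it, while PSMD7 was at −0.89 (adjusted p = 0.0038). PSMB11, at 24 and 41 counts with siCtrl and 2 and 4 counts with siPADI2, had a log2 fold change of −2.20 (SE 0.62, adjusted p = 0.0027).

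PSMD9, the chaperone at 0.01 in poly(A) RNA, was the gene that rose, from 42.0 and 44.3 to 67.4 and 73.7 CPM, a log2 fold change of 0.71 (SE 0.20, adjusted p = 0.0031). Of its exonic bases 19.9% are shared with a neighbour on the same strand. PSMB10 fell here as well, from 10.2 and 14.9 to 4.26 and 7.09 CPM, with a log2 fold change of −1.15 (SE 0.34, adjusted p = 0.0051), and PSMB8 had one of −0.73 (adjusted p = 0.061). With the GC correction PSMB10 was at −0.33 (adjusted p = 0.55) and PSMB11 at −1.50 (adjusted p = 0.092). None of these calls held in all alternatives: DESeq2 called 0 lower and 1 higher (6 at an unadjusted p under 0.05, against 8 in edgeR), 0 of 43 common genes passed without siCtrl replicate 5 (7 at an unadjusted p under 0.05), and without siPADI2 replicate 2 only 1 did (PSMB11). Without siCtrl replicate 1, 2 genes passed as lower and 0 as higher. PSMB11 was lost without siPADI2 replicate 1 (adjusted p = 0.076), as was PSMB10 (adjusted p = 0.14).

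The members with the largest falls in poly(A) RNA did not pass on chromatin. PSMD3 and PSMB4 had separated, lower groups there, PSMD3 with 64.5 and 67.9 against 51.5 and 46.8 CPM (log2 fold change −0.43, adjusted p = 0.093) and PSMB4 with 81.7 and 78.5 against 62.8 and 52.4 CPM (−0.47, adjusted p = 0.066). PSME3 stood at 56.7 and 63.9 against 62.1 and 60.9 CPM, PSMD5 at 61.4 and 54.3 against 66.4 and 53.9 CPM, and PSMD10 at 13.1 and 13.0 against 13.8 and 10.6 CPM, with overlapping groups in each. Over 42 genes the correlation between the effects in the 2 fractions was −0.03, against 0.17 over 17438 genes. A joint test of the difference called 1 common gene lower and 0 higher, against 6.34% lower and 1.71% higher among 44615 genes, with SEs of the members from 0.369 upward. That gene was PSMG1, with a difference of −1.15 (SE 0.39, adjusted p = 0.041), lost without siPADI2 replicate 1 or 2 of poly(A) RNA (adjusted p = 0.162 and 0.185) and without chromatin siPADI2 replicate 2 (adjusted p = 0.055). With RLE factors in place of TMM 9 genes were higher, beside 3002 of all 44615, so the size of this difference depends on the scaling. Leaving out 1 library gave 0 to 5 higher and 0 to 10 lower, the most without poly(A) siCtrl replicate 2.

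Other genes of the pathway were taken from a list of 33. After siPADI2 in poly(A) RNA 8 rose and 12 fell, beside 28.8% and 27.9% of all genes. In the libraries labelled R1810A 8 rose and 6 fell, beside 22.6% and 24.3%, and in chromatin RNA 0 rose and 8 fell, beside 12.2% and 20.1%. Whether the list differed from all genes was not tested, so the single genes that follow say nothing of the list. RAD23B, a shuttle factor that carries ubiquitin-tagged proteins to the proteasome, went from 632 and 708 to 304 and 299 CPM after siPADI2, a log2 fold change of −1.15 (SE 0.088). In the libraries labelled R1810A it went from 565 and 595 to 277 and 300.4 CPM and fell by 1.01 on the log2 scale.

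FAF2, an adaptor that anchors the VCP segregase to the endoplasmic reticulum, had the largest change of the list. It went from 175 and 189 to 42.2 and 46.5 CPM after siPADI2, a log2 fold change of −2.04 (SE 0.087), and from 178 and 183 to 68.8 and 72.3 CPM in the libraries labelled R1810A, one of −1.35 (SE 0.061). VCP itself, the ATPase that extracts ubiquitin-tagged proteins, fell by 0.46 after siPADI2.

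NFE2L1, the transcription factor that raises proteasome genes when activity is short, rose after siPADI2, from 413 and 381 to 642 and 604 CPM, a log2 fold change of 0.65 (SE 0.087, adjusted p = 3.5e-08). NGLY1, the glycanase that activates NFE2L1, fell by 0.73, and DDI2, the protease that cleaves it, had a change of −0.06 (adjusted p = 0.55). NFE2L2, its relative in the oxidative stress response, had one of 0.17 (adjusted p = 0.079). In the libraries labelled R1810A NFE2L1 had a change of 0.18 (adjusted p = 0.077), NFE2L2 rose by 0.22, and DDI2 and NGLY1 fell by 0.27 and 0.26. By the joint test the siPADI2 effect was above the R1810A effect for NFE2L1 (0.45, adjusted p = 0.0064) and below it for NGLY1 (−0.50, adjusted p = 0.0019). The siPADI2 effect on NFE2L1 was lower on chromatin than in poly(A) RNA (−1.23, SE 0.39, adjusted p = 0.024). With the GC correction its chromatin value was 0.098 (adjusted p = 0.77). The subunits and chaperones with other names, ADRM1, SEM1, POMP and PAAF1, did not pass in either poly(A) comparison, where the lowest adjusted p was that of SEM1 after siPADI2 (0.065). On chromatin the ubiquitin receptor ADRM1 fell by 1.21 (SE 0.23) and the maturation factor POMP by 0.69. With the GC correction ADRM1 was at −0.32 (adjusted p = 0.31) and POMP at −1.22 (adjusted p = 0.0010).

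Promoters of the members were searched because many of these genes fell after siPADI2 in poly(A) RNA. NFE2L1 and interferon factors are also known to act on genes of the proteasome. RefSeq windows (GRCh38.p14) from 250 bases before to 50 after a start were present for 41 of the 47 genes, 50 windows in all, and 10 short motifs were searched on both strands. The NFE2L1 and NFE2L2 element, TGACNNNGC, lay in 28.0% of the members' windows and in 13.35% of all 35116 windows, and the interferon factor motif, 2 copies of GAAA with 2 bases between, in 14.0% and 3.57%. The other 8 were CCAAT (38.0% against 34.61%), TTCNNNGAA (16.0% against 7.66%), CACGTG (4.0% against 7.26%), GGGCGG (68.0% against 44.95%), CCGGAAG (30.0% against 10.26%), GCGC and TGCGC with 1 base between (14.0% against 5.78%), AAGATGGC (12.0% against 2.89%) and TATAAA (10.0% against 11.53%). Matches of different motifs overlapped in 4 genes, GGGCGG with CCAAT in PSMA4 and with CCGGAAG in PSMA8, PSME4 and PSMG4.

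The first element is shown for members that changed after siPADI2, 5′ to 3′ along the gene, with the motif in capitals (in PSME4 its reverse complement). The distance given runs from the start of the motif to the start of the gene.
PSMA4, chr15:78540650-78540678, plus strand, 126 bases before the start: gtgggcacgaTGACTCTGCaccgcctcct
PSMD3, chr17:39980760-39980788, plus strand, 37 bases before the start: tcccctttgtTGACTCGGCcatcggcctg
PSMD5, chr9:120843038-120843066, minus strand, 134 bases before the start: tggctacagtTGACACGGCcctaacggag
PSME4, chr2:53971009-53971037, minus strand, 34 bases before the start: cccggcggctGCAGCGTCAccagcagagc
PSMG1, chr21:39183616-39183644, minus strand, 183 bases before the start: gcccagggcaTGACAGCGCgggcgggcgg
Of these, PSMG1 rose and the others fell. PSMD1, which also holds the element and fell, is not shown. Among tested members with a window, 5 of 14 with the element fell after siPADI2 and 13 of 25 without it.

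The interferon factor motif is shown, in capitals, for the immunoproteasome gene PSMB10, for the interferon-inducible PSME2 and for PSMB4, which is not known as an interferon gene.
PSMB10, chr16:67936852-67936881, minus strand, 21 bases before the start: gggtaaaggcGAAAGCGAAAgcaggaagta
PSME2, chr14:24146619-24146648, minus strand, 28 bases before the start: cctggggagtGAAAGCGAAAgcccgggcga
PSMB4, chr1:151399495-151399524, plus strand, 68 bases before the start: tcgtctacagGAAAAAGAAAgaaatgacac
PSMB10 and PSMB4 fell after siPADI2, while PSME2 had a log2 fold change of −0.11. Among tested members with a window, 3 of 7 with this motif fell after siPADI2 and 15 of 32 without it. A match is a description of these letters and no measure of binding.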

How the data were processed

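Poly(A) RNA (8 libraries) and chromatin RNA (4 libraries) were measured by RNA-seq. What the authors deposited for each library is a table of raw counts by gene. Per the submitters' processing notes Trimmomatic and STAR preceded featureCounts. The file headers give featureCounts 1.5.1 (poly(A)) and 1.4.6-p2 (chromatin) on GENCODE 19, hg19, counting read pairs with strand option 2 and leaving out multi-mapping reads and reads on several genes. Only exons were counted, so intronic reads of chromatin RNA are absent. Symbols came from GENCODE 29 by identifier (52338 of 57820 genes). The 4 libraries of a comparison were fitted by edgeR 4.0.16 in R 4.3.3 (TMM scaling, filterByExpr, robust quasi-likelihood F test). Adjusted p is Benjamini-Hochberg over every gene tested, with a threshold of 0.05. A standard error (SE) is the log2 fold change divided by the square root of F. Differences between effects were interaction contrasts over 8 libraries. The fits were tested on simulated data.

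CPM divides counts by the library size after TMM, in units of 1e6. Replicate libraries were compared over genes averaging 10 counts or more, and no pair agreed within sampling noise. DESeq2 1.42.0, other scaling, no filter, a GC correction, joint fits, a replicate block and leaving out each library were alternatives. The members and lists were chosen with earlier results of these data known. Members named were the catalytic, immunoproteasome, activator and inhibitor genes, the 5 largest changes in each direction among those past the threshold, and up to 4 examples per role. Pathway genes were named if regulators or if past the threshold with a log2 change of at least 0.5; other genes named were chosen after their values were seen. Some genes of the lists are not reported here by name.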

Additional observations from a re-analysis of the deposited data

Results flagged for a closer look

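Each gene here was singled out because a direct test found that its effect differed between 2 comparisons. Between siPADI2 and the libraries labelled R1810A in poly(A) RNA, the siPADI2 effect was lower on the log2 scale by −0.63 for PSME3, −0.58 for PSMD10, −0.51 for PSMA3, −0.48 for PSMD5, −0.46 for PSMB4, −0.43 for PSMA5, −0.42 for PSME4, −0.37 for PSMD3, −0.36 for PSMA4, −0.36 for PSME2, −0.29 for PSMB5, −0.27 for PSMD13 and −0.26 for PSMB6. It was higher by 0.53 for PSMB9, 0.50 for PSMB8 and 0.43 for PSMG1. PSMB5, PSME2, PSMD13, PSMB8 and PSMB9 passed here without passing in siPADI2 alone. The effects had opposite signs in the 2 comparisons for PSMB5, PSME2, PSMD13 and PSMB8, and were negative in both for PSMB9. Between chromatin and poly(A) RNA, the siPADI2 effect was lower on chromatin by −1.15 for PSMG1.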

How the results depend on the processing

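With total counts as library sizes, siPADI2 in poly(A) RNA gave 10 higher and 11 lower (median 0.038), R1810A 10 and 6, chromatin 1 lower, the siPADI2 minus R1810A difference 2 and 6 (median −0.077) and the chromatin minus poly(A) difference 4 and 4. Over all genes total counts gave 7398 higher and 3636 lower for siPADI2 in poly(A) RNA, and 5110 and 3901 for R1810A. On chromatin they gave 4156 and 4891 of all genes. For the siPADI2 minus R1810A difference they gave 3870 and 1822, and for the chromatin minus poly(A) difference 1666 and 4074. RLE factors made 9 members higher in the chromatin minus poly(A) difference, beside 3002 of all 44615 genes. The GC correction gave 5 higher in siPADI2 poly(A) RNA and 2 higher and 8 lower on chromatin, where DESeq2 gave 0 lower and the joint fit of 8 libraries 0 higher and 1 lower. Over all genes the GC correction gave 5629 higher in siPADI2 poly(A) RNA and 1767 higher and 3750 lower on chromatin. There DESeq2 gave 3169 of all genes lower and the joint fit 2085 higher and 5464 lower. Without a filter 7 members were lower in siPADI2 minus R1810A, beside 2217 of all 34842 genes. Leaving out each library gave 1 to 2 higher for siPADI2 poly(A), 1 to 7 higher, 5 to 11 lower and medians of −0.065 to 0.052 for R1810A, 0 to 1 higher and 0 to 4 lower on chromatin, 0 to 2 higher and 8 to 17 lower for siPADI2 minus R1810A, and 0 to 5 higher and 0 to 10 lower (medians −0.50 to 0.14) for chromatin minus poly(A). The cause was not tested. In all, 113 counts and medians kept their value within the limits set and 49 moved. Each named gene was compared with the main fit in every alternative of a comparison. In 859 of these cases its status, called or not called, stayed the same. A call was lost in 132 cases and gained in 28, and the sign changed in 40.

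Same-numbered libraries deviated together with a correlation of 0.24 for siPADI2 and 0.74 for R1810A, and with only 2 numbers they were not taken as pairs. A replicate block gave 3 higher and 20 lower of 42 members for siPADI2, beside 5830 higher and 5683 lower of all 18720 genes. For R1810A it gave 13 higher (31.0%) and 15 lower (35.7%), beside 5975 higher and 6607 lower of all 19202 genes. No paired analysis was possible for chromatin because its groups share 1 number.

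Sign changes were mostly of genes without a call; KEAP1 on chromatin was called (−0.51). With siPADI2 in poly(A) RNA and total counts these were PSMB5 0.035, PSMB7 0.17, PSMB9 0.069, PSME2 0.070, DDI2 0.12, POMP 0.11 and ADRM1 0.15. PSMB7 was 0.0036 with DESeq2, 0.028 without a filter, 0.036 with the GC correction and 0.0071 in the joint fit, and ADRM1 0.0028 without a filter and 0.013 with the GC correction. Leaving out libraries gave PSMB7 −0.069 to 0.054, PSMB9 −0.28 to 0.032, POMP −0.18 to 0.034 and ADRM1 −0.19 to 0.13. For R1810A it gave PSMB6 −0.14 to 0.0093, PSMB10 −0.12 to 0.30 and ADRM1 −0.066 to 0.18. On chromatin the GC correction gave PSMB6 0.16, PSMB9 −0.18, PSME3 −0.081, NFE2L1 0.098, DDI2 −0.39, SEM1 −0.28 and KEAP1 0.30. DESeq2 gave PSME3 −0.0176 and DDI2 −0.00834, no filter −0.037 and −0.028, and total counts PSME4 0.11. Leaving out libraries gave PSMB9 −0.040 to 0.22, PSME3 −0.056 to 0.078, PSME4 −0.21 to 0.17, PSMF1 −0.46 to 0.023 and DDI2 −0.15 to 0.20. The low depth of chromatin RNA limits its calls.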

Other observations

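The control groups of the 2 poly(A) experiments differed in the interferon-inducible members, values that belong to no comparison of the design because the experiments were separate and were scaled separately. With siCtrl against WT, PSMB8 stood at 141 and 136 against 32.4 and 33.6 CPM, PSMB9 at 47.8 and 49.4 against 8.02 and 7.86 CPM, and PSMB10 at 33.8 and 26.0 against 5.83 and 6.27 CPM. PSME1 and PSME2, the interferon-inducible activator pair, stood at 136 and 133 against 69.9 and 71.7 CPM and at 96.2 and 96.9 against 51.1 and 47.02 CPM. Constitutive subunits were closer, with PSMB5 at 60.2 and 61.6 against 60.1 and 60.6 CPM and PSMB7 at 180.4 and 188 against 176 and 182 CPM. Some other members lay further apart than PSMB5 and PSMB7, in either direction. PSMC3 stood at 148 and 145 against 193 and 205 CPM, and the chaperone PSMD5 at 246 and 268 against 177 and 182 CPM. The antigen transporter gene TAP1 stood at 391 and 374 against 79.5 and 84.8 CPM. The transfected material, the toxin and the experiment cannot be told apart here.

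In chromatin RNA the thymus subunit PSMB11 and the testis subunit PSMA8 had reads (24 and 41, and 33 and 30 counts with siCtrl) although both had no count in the siCtrl poly(A) libraries. PSMB11 lies 6937 bases from PSMB5 on the opposite strand of chromosome 14. Among the 47 members 8 lie on chromosome 14, including PSME1 and PSME2, which are 4398 bases apart on opposite strands.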
